A study of Mus musculus with 24 samples.

Results

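Vmn2r1 to Vmn2r7 are 7 mouse genes annotated as vomeronasal receptors of the V2R family, and they were taken from the count table by their symbols, as 7 of its 39396 genes. All 7 lie in 1 cluster on chromosome 3. Of the 7, 6 had at least 1 count in the 24 libraries, and 3 (Vmn2r1, Vmn2r2 and Vmn2r3) passed the filter on low counts that left 17352 genes tested. Vmn2r3 was chosen because of its difference between knockout and control ventricles, so its levels are given as a description, without a test, and the tests are on its relatives and neighbours.

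V2R receptors are class C G protein-coupled receptors of the vomeronasal organ, the sensory tissue in the nose that detects pheromones and other chemical signals. A large extracellular domain binds peptides and proteins, and in the sensory neuron the signal passes through the G protein subunit Gnao1 to the channel Trpc2. The genes stand in clusters of near-identical copies and pseudogenes. No role in heart muscle is part of their textbook description.

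The study sequenced polyA RNA from left ventricular tissue of mice with an embryonic deletion of Rhot1 and Rhot2 (the mitochondrial motor adaptors Miro1 and Miro2) selective for cardiomyocytes (DKO), and of control mice, at ages labelled d1 and d7. Each of the 4 groups (control and DKO at labelled day 1, control and DKO at labelled day 7) had 6 libraries, which are called here by their library names. The Cre line that made the deletion, the alleles of the controls, the strain and the sex are not named in the labels. The cell type is labelled cardiomyocyte, whereas the RNA came from whole ventricle, so fewer cells of a type and less RNA per cell cannot be told apart. Nothing in the labels says that libraries of a group came from separate animals, and p-values then measure only the spread between these libraries.

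Libraries held 30318018 to 45806171 counts at labelled day 1 and 17334498 to 30453874 at labelled day 7. At labelled day 1, Rhot1 was at 129 to 173 CPM (counts scaled by TMM to a common library size, per 1e6) in controls and 107 to 136 in DKO, and at labelled day 7 at 144 to 164 and 123 to 151, so the DKO and control ranges overlapped at both ages. Rhot1 was lower in DKO at labelled day 1 (−0.42 ± 0.08 in log2, SE; adjusted p = 0.00109 with edgeR) and missed the threshold at labelled day 7 (−0.25 ± 0.06, SE; adjusted p = 0.0871). Rhot2 was listed at 0 in every library, and 100% of its exonic bases lie inside other genes in the annotation. Heart muscle markers were high in all groups, with the 11 genes of that list summing to between 55800 and 71300 CPM. The summed fetal markers were lower at labelled day 1 (574 to 2560 CPM over both genotypes) than at labelled day 7 (3370 to 4810 CPM), against the order the labelled ages would have in a maturing heart, so the ages are called labelled ages throughout.

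The coding sequences of the members are similar enough that short reads of one could be assigned to another, which bears on every value that follows. In the GENCODE M21 transcripts (GRCm38), the coding sequence of Vmn2r3 (2727 bases) was 85.1% identical to that of Vmn2r1, 87.5% to Vmn2r2, 89.9% to Vmn2r4, 87.0% to Vmn2r5, 89.7% to Vmn2r6 and 90.0% to Vmn2r7. Most differences lie upstream of the last part of the reading frame. There, from base 2450 to base 2704 of the Vmn2r3 coding sequence, Vmn2r1 and Vmn2r2 matched Vmn2r3 in all 255 bases, the longest run shared with either gene. Within the same stretch the longest identical run was 193 bases with Vmn2r4, 136 with Vmn2r5 and 121 with Vmn2r6. The stretch is printed from the coding strand of GENCODE transcripts on chromosome 3 (minus strand for these 5 genes), with capitals marking bases that differ from Vmn2r3, because it is where counts of the relatives could hold reads of Vmn2r3.
Vmn2r3: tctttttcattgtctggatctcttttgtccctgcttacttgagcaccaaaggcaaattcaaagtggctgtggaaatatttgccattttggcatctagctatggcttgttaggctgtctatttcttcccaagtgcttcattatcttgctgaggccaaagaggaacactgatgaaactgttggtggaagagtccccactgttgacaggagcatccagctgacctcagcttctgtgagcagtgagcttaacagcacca
Vmn2r2: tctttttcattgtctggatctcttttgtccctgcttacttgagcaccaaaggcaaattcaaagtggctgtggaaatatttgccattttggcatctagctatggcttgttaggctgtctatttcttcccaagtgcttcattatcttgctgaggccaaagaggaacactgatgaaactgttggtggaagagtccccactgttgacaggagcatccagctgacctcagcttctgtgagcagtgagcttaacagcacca
Vmn2r4: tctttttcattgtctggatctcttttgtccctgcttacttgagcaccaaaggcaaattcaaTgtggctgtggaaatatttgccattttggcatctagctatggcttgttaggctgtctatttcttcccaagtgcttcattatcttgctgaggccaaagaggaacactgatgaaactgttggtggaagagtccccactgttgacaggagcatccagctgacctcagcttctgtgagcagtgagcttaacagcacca
Vmn2r5: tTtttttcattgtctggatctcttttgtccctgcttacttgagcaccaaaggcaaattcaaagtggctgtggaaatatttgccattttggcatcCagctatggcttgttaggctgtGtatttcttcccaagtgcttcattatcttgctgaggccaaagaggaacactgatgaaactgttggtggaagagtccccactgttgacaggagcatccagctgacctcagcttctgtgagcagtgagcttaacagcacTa
Vmn2r6: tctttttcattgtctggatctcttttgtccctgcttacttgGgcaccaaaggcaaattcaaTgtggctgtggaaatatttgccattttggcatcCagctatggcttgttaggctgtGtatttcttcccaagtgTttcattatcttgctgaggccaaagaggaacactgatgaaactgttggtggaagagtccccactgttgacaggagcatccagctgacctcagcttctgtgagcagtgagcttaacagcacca

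The start of the reading frame tells Vmn2r3 apart from each of these relatives. It does not separate all relatives from each other: Vmn2r4 and Vmn2r6, 96.8% identical over the coding sequence, are nearly the same here. Over the first coding bases, 17 to 21 capitals mark positions that differ from Vmn2r3 or have no aligned base in it, and the reading frames differ in length because of insertions and deletions. These stretches are shown because reads from here could separate Vmn2r3 from each relative.
Vmn2r3: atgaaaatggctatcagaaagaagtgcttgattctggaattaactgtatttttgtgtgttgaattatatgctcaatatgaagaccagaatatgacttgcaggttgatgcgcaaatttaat
Vmn2r2: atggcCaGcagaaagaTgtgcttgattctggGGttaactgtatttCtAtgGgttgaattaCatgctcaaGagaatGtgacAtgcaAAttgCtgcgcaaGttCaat
Vmn2r4: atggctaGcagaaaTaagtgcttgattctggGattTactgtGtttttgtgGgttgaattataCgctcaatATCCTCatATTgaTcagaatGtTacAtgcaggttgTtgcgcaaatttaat
Vmn2r5: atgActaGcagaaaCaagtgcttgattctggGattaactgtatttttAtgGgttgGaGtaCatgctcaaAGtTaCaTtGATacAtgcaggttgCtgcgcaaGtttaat
Vmn2r6: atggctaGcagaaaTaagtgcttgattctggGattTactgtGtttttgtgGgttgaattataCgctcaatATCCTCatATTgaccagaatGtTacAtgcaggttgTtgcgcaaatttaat

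How much of each gene is shared depends on read length, for which the sources used here give no value. With 75-base words over all exons, 3.74% of those of Vmn2r2, 2.67% of those of Vmn2r1, 1.55% of those of Vmn2r4, 1.77% of those of Vmn2r5 and 0.995% of those of Vmn2r6 also occur in Vmn2r3. In the other direction, 1.27% of the words of Vmn2r3 occur in any Vmn2r gene or pseudogene of the cluster. Most exonic sequence of Vmn2r3 therefore separates it from the cluster, and no exonic base of Vmn2r1 to Vmn2r6 lies inside another annotated gene. How the counting treated reads that match several genes is likewise not given, so the counts of Vmn2r1, Vmn2r2, Vmn2r4, Vmn2r5 and Vmn2r6 are uncertain to that extent.

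Vmn2r3 was almost absent from control ventricles and present in every DKO library. At labelled day 1 the 6 controls (13, 14, 22, 25, 56 and 62) held 1, 0, 2, 0, 1 and 1 counts. The 6 DKO libraries (29, 33, 35, 55, 69 and 79) held 1252, 996, 1460, 662, 435 and 18 counts. The groups did not overlap, and DKO 79 was the lowest DKO library by far.

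In CPM, the DKO libraries of labelled day 1 were at 35.4, 26.7, 46, 21, 14.4 and 0.553, against at most 0.044 in controls. The mean was 24 ± 16 CPM (SD, n = 6) in DKO and 0.0208 ± 0.0174 CPM (SD, n = 6) in control. Scaled by library size, the summed counts (4823 against 5) were 1140-fold higher in DKO, with a 95% exact counting interval of 488 to 3510 that covers counting error only. Without DKO 79 the DKO mean was 28.7 ± 12.4 CPM (SD, n = 5), and the other 5 libraries were 26.0 to 83.3 times as high as DKO 79. DKO 79 itself was 26.5 times as high as the control mean.

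For labelled day 7, Vmn2r3 had 0 counts in control m1022, 2 in m1064, 5 in m1066 and 0 in each of m1088, m1091 and m1101. It had 205 in DKO m1026, 81 in m1046, 109 in m1067, 154 in m1092, 270 in m1124 and 333 in m1128. The groups again did not overlap, and the lowest DKO library, m1046, was at 2.60 CPM against 0.193 in the highest control, m1066.

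The mean at labelled day 7 was 7.25 ± 3.75 CPM (SD, n = 6) in DKO and 0.0444 ± 0.0785 CPM (SD, n = 6) in control. The summed counts (1152 against 7) were 153-fold higher in DKO, with a 95% exact counting interval of 74.0 to 381. Without control m1066, which holds 5 of the 7 control counts, the ratio was 444 and the control mean 0.0146 CPM. A control library with 0 counts allows up to 3. That limit is 0.0801 CPM for control 14 and 0.0738 CPM for control 25 at labelled day 1. For the controls at 0 at labelled day 7 it is 0.109 to 0.166 CPM.

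**Figure D1:**
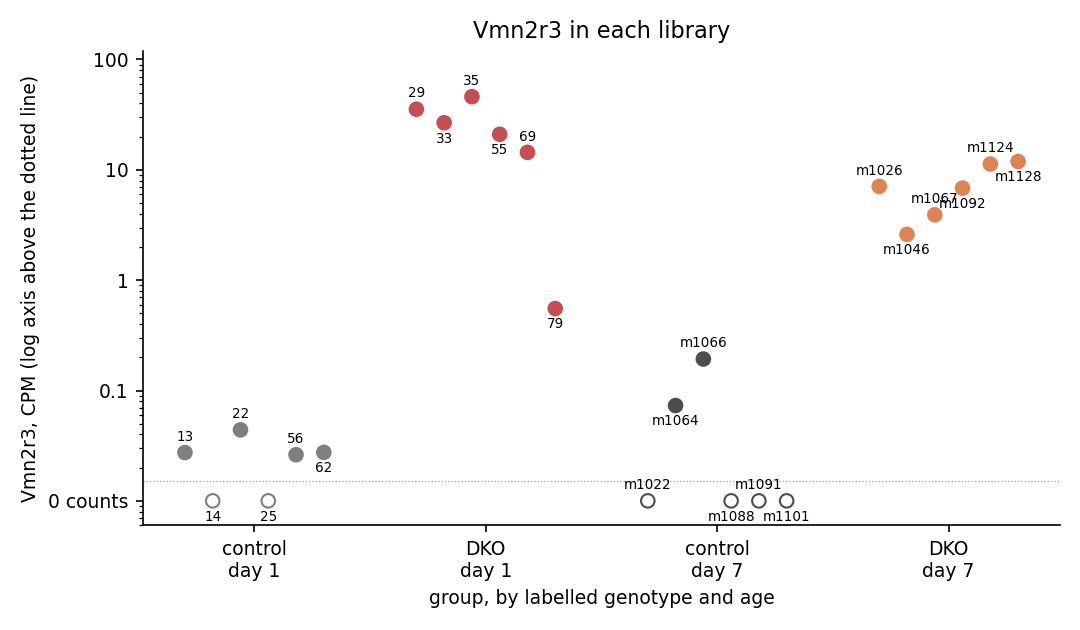
Vmn2r3 in CPM (log axis) in each of the 24 libraries, grouped by labelled genotype and age, with open circles for libraries with 0 counts and the library name beside each point. All 12 DKO libraries lie above all 12 controls, with DKO 79 at 0.553 CPM and the other labelled day 1 DKO libraries at 14.4 to 46.

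By group mean, the order of the Vmn2r3 levels was DKO at labelled day 1, DKO at labelled day 7, control at labelled day 7 and control at labelled day 1. The DKO mean was 3.31 times as high at labelled day 1 as at labelled day 7, but the ranges overlapped because of DKO 79. The control groups overlapped as well, and their order rests on control m1066. Without it the control mean at labelled day 7 was 0.0146 CPM, below the 0.0208 CPM of labelled day 1. Per kb of exon, Vmn2r3 was at 1.38 CPM in DKO at labelled day 1 and 0.417 at labelled day 7, given that its annotated exons cover 17411 bases.

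At each labelled age, the DKO library with the highest Rhot1 level was the one with the lowest Vmn2r3. One was DKO 79, at labelled day 1, with 136 CPM of Rhot1 against 107 to 120 in the other 5. The other, at labelled day 7, was DKO m1046, with 151 CPM of Rhot1 against 123 to 136 in the other 5. The part of the remaining Rhot1 transcript in the Vmn2r3 level was not tested.

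By the counts as assigned, Vmn2r3 did not stand alone in its cluster at labelled day 1. The part of reads from Vmn2r3 in the counts of its relatives was not tested. In edgeR's quasi-likelihood test over the 17352 genes that passed the filter, 1 of the 2 other members tested, Vmn2r2, rose in DKO, beside 9.81% of all genes tested. In the fit without the filter, which tests 27016 genes and 5 of the 6 other members, 4 rose (Vmn2r2, Vmn2r4, Vmn2r5 and Vmn2r6), beside 6.2% of all genes, and 0 fell, beside 4.37%. Vmn2r7 had no counts and no test. The differences were small beside that of Vmn2r3: in mean CPM, each relative's DKO excess was 1.3% (Vmn2r1) to 2.96% (Vmn2r2) of the excess of Vmn2r3.

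Vmn2r2, which stands next to Vmn2r1 on one flank of Vmn2r3, held 8, 4, 4, 7, 4 and 5 counts in the controls of labelled day 1. In the DKO libraries it held 40, 25, 57, 21, 24 and 1, so that 5 of 6 lay above every control and DKO 79 below all of them. The means were 0.848 ± 0.586 CPM in DKO and 0.138 ± 0.0496 in control (SD, n = 6 each), a log2 fold change of 2.60 ± 0.55 (SE; edgeR adjusted p = 0.00453). The summed counts were 6.2-fold higher, with a 95% exact counting interval of 4.23 to 9.36. With limma-voom the call was lost (2.0, adjusted p = 0.107).

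Vmn2r1, the member farthest from Vmn2r3 in coding sequence, held 15, 13, 10, 11, 4 and 3 counts in controls and 32, 18, 23, 18, 14 and 5 in DKO at labelled day 1. The groups overlapped, with 5 of 6 DKO libraries above the control mean. In edgeR the fitted log2 difference of 1.19 ± 0.40 (SE) missed the threshold of 0.05 (adjusted p = 0.0525). It passed without DKO 79 (1.38, adjusted p = 0.0141), without control 13 (1.40, adjusted p = 0.0263), with the DESeq2 test (1.20, adjusted p = 0.0349) and with all 24 libraries in 1 fit (1.19, adjusted p = 0.0271).

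Vmn2r4, on the other flank, held 0, 1, 2, 3, 0 and 0 counts in controls and 22, 22, 34, 15, 14 and 1 in DKO at labelled day 1. The groups were separate apart from DKO 79. The fitted log2 fold change was 4.23 ± 0.69 (SE; edgeR without the filter, adjusted p = 0.000481), and the summed counts (108 against 6) were 21.3-fold higher, with an interval of 9.45 to 59.2.

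Vmn2r5 held 1, 1, 1, 0, 0 and 1 counts in controls and 22, 14, 29, 4, 7 and 1 in DKO at labelled day 1. Every DKO library was above every control in CPM, DKO 79 by its smaller library alone. The log2 fold change was 4.23 ± 0.76 (SE; edgeR without the filter, adjusted p = 0.00102), and the summed counts (77 against 4) were 22.7-fold higher, with an interval of 8.53 to 85.5.

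Vmn2r6 held 0, 1, 1, 3, 1 and 3 counts in controls and 19, 17, 34, 12, 10 and 3 in DKO at labelled day 1. Its groups did not overlap in CPM, but DKO 79 and controls 25 and 62 each held 3 counts. DKO 79 lay above these controls (0.0922 against 0.0738 and 0.0826 CPM) by its smaller library alone. The log2 fold change was 3.51 ± 0.57 (SE; edgeR without the filter, adjusted p = 0.000252), and the summed counts (95 against 9) were 12.5-fold higher, with an interval of 6.30 to 28.1. Of the 5 other members with counts, 2 (Vmn2r5 and Vmn2r6) had every DKO library above every control at labelled day 1, a pattern seen in 4.42% of the genes with at least 1 count. For both, DKO 79 was above the highest control by library size alone.

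Vmn2r7, the last member on that flank and 98.8% identical to Vmn2r6 in coding sequence, was listed at 0 in all 24 libraries. In the annotation 99.8% of its exonic bases lie inside the spans, introns included, of Gm26939 and Vmn2r-ps12. How reads in such bases were counted is not given, so the 0 of Vmn2r7 cannot be read as absence of its transcript.

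Vmn2r128, annotated in GENCODE M21 as the polymorphic pseudogene Vmn2r-ps5 and matched by its gene ID, lies between Vmn2r3 and Vmn2r4. It is no member by symbol. It held 7 counts in the controls of labelled day 1 and 79 in DKO, and 1 and 28 at labelled day 7. In the unfiltered fit it rose by a log2 fold change of 3.57 ± 0.72 at labelled day 1 (SE; edgeR adjusted p = 0.00273) and 3.96 ± 0.70 at labelled day 7 (SE; edgeR adjusted p = 0.0064). The summed counts of labelled day 7 gave a ratio of 26, with an interval of 4.3 to 1060. The pseudogene Vmn2r-ps11, with 0 counts in controls and 12 in DKO at labelled day 1, was at least 4.72-fold higher over the group against the same kind of limit of 3 counts, with a 95% exact counting interval that starts at 3.28 (edgeR without the filter, adjusted p = 0.0181), and 89.4% of its exonic bases lie inside Gm26939.

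At labelled day 7 fewer relatives passed. With the filter, 0 of the 2 other members tested by edgeR passed, beside 0.686% of all genes higher and 0.334% lower in DKO. Also 0 had an unadjusted p under 0.05, and 0 passed with DESeq2 or limma-voom. Without the filter 1 of 5, Vmn2r5, was higher, beside 0.426% of all genes.

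Vmn2r5 had 0 counts in every control of labelled day 7 and 3, 3, 3, 1, 4 and 3 in DKO. That is at least 5.27-fold higher over the group, against the limit of 3 counts that a group at 0 allows, and the 95% exact counting interval, which also holds the error of the DKO counts, starts at 3.84. The adjusted p was 0.0381 (edgeR without the filter), and it rose above the threshold when any of 11 of the 12 libraries was left out. The count of 17 in all limits this call.

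Vmn2r4 held 20 counts in DKO and 4 in control at labelled day 7 (log2 fold change 2.05 ± 0.89, SE; edgeR without the filter, adjusted p = 0.427). Vmn2r6 held 19 and 7 (1.26 ± 0.65, SE; adjusted p = 0.53, same fit). Vmn2r2 held 89 and 59 (0.51 ± 0.39, SE; edgeR adjusted p = 0.602), and Vmn2r1 held 89 and 73 (0.15 ± 0.31, SE; edgeR adjusted p = 0.874). The DKO and control libraries of these 4 genes overlapped. Of the 5 other members with counts, 1 (Vmn2r5, on 17 counts) had every DKO library above every control at labelled day 7, a pattern seen in 0.751% of the genes with at least 1 count.

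The difference between the genotype effects at the labelled ages was tested directly over all 24 libraries. With the filter 0 of 2 other members passed in edgeR, beside 1.08% of all genes, and 1 of them, Vmn2r2, had an unadjusted p under 0.05 (−2.08 ± 0.72, SE; adjusted p = 0.20). Vmn2r1 was at −1.03 ± 0.52 (SE; adjusted p = 0.473). Without the filter 0 of 5 passed, beside 0.422% of all genes. The lower number of relatives past the threshold at labelled day 7 was therefore not shown to be a different effect.

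**Figure D2:**
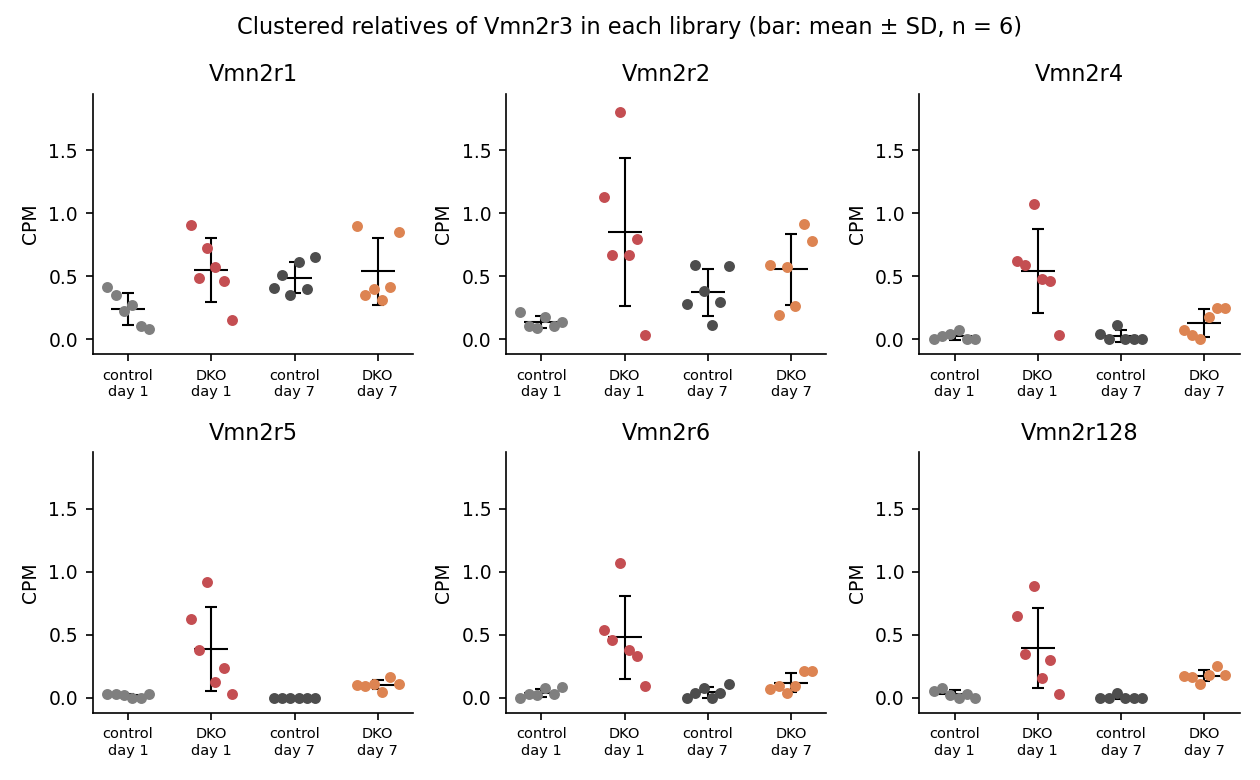
CPM of Vmn2r1, Vmn2r2, Vmn2r4, Vmn2r5, Vmn2r6 and Vmn2r128 in each library of the 4 groups, with bars at the mean ± SD (n = 6). All 6 genes are on 1 scale that ends below 2 CPM, and DKO 79 is the lowest labelled day 1 DKO library in each panel.

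Between the labelled ages within a genotype, the relatives differed in their own ways. The libraries of the labelled ages also differ in the form of their names and mostly in depth. Labelled age therefore cannot be told apart from a difference between these sets of libraries. In controls, Vmn2r1 was higher at labelled day 7 than at labelled day 1 (0.487 against 0.239 CPM; log2 fold change 1.01 ± 0.39, SE; edgeR adjusted p = 0.0322), and so was Vmn2r2 (0.372 against 0.138 CPM; 1.46 ± 0.57, SE; adjusted p = 0.0342), beside 27.4% of all genes. In DKO both missed the threshold (adjusted p = 0.962 and 0.247). In the fit without the filter, Vmn2r4 (−2.09 ± 0.59, SE; adjusted p = 0.00569), Vmn2r5 (−1.85 ± 0.55, SE; adjusted p = 0.00952) and Vmn2r6 (−1.99 ± 0.49, SE; adjusted p = 0.00157) were lower in DKO at labelled day 7 than at labelled day 1, beside 16.7% of all genes lower. None of these 3 passed between the labelled ages in controls (adjusted p = 1, 0.231 and 0.893, edgeR without the filter).

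Across the 12 DKO libraries, the counts of the low relatives came to 5.44% to 33.3% of the Vmn2r3 count, and the share was largest in the 2 libraries with the lowest Vmn2r3 counts (DKO 79 and DKO m1046). The summed counts of Vmn2r4, Vmn2r5, Vmn2r6 and Vmn2r128 were 86, 66, 125, 36, 40 and 6 in DKO 29, 33, 35, 55, 69 and 79. As a share of the Vmn2r3 count in the same library, that is 5.44% to 9.20% in the first 5 and 33.3% in DKO 79, where it rests on 6 against 18 counts. Controls 13, 14, 22, 25, 56 and 62, almost without Vmn2r3, held 3, 6, 5, 6, 2 and 4 counts of the same 4 genes. The 6 counts of DKO 79 lie within that range. Beyond DKO 79 and DKO m1046, the share did not grow steadily as Vmn2r3 fell. It was 6.42% at 109 Vmn2r3 counts (DKO m1067) and 8.56% at 1460 (DKO 35). The share at labelled day 7 was 5.85% to 14.8%, with a median of 6.78% and the highest value in DKO m1046. These genes share the library, its depth and parts of their sequence with Vmn2r3, and the part of reads from Vmn2r3 in their counts was not tested.

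**Figure D3:**
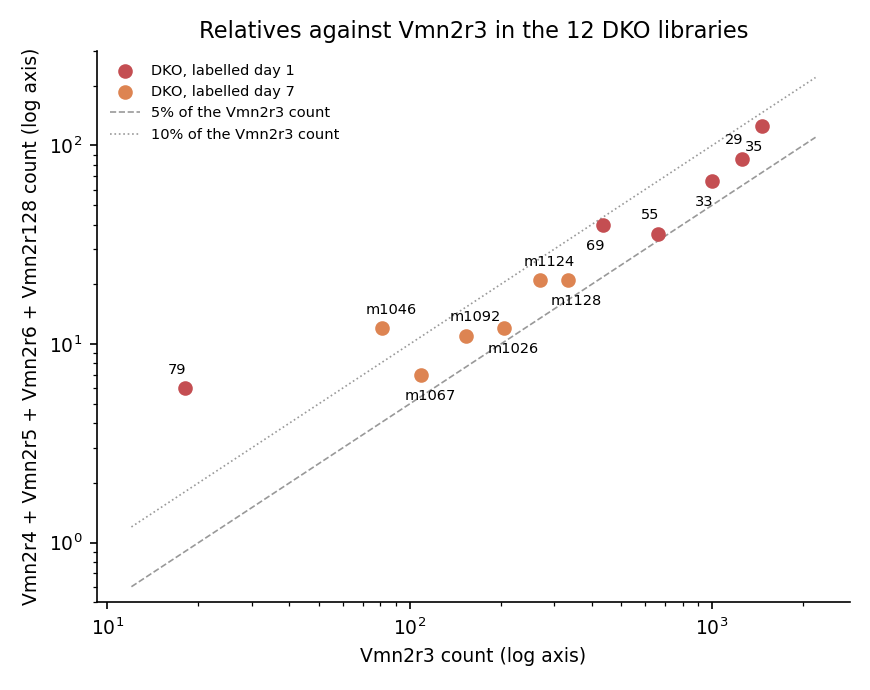
Summed count of Vmn2r4, Vmn2r5, Vmn2r6 and Vmn2r128 against the count of Vmn2r3 in the 12 DKO libraries (both axes log), with lines at 5% and 10% of the Vmn2r3 count. Libraries fall mostly between the lines, and DKO 79 (33.3%) and DKO m1046 (14.8%) lie above them.

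Levels between members can be set side by side only per length. Per kb of exon, the DKO means at labelled day 1 were 1.38 CPM for Vmn2r3, 0.161 for Vmn2r2, 0.0802 for Vmn2r1, 0.0759 for Vmn2r5, 0.0568 for Vmn2r4 and 0.0502 for Vmn2r6. In controls of the same labelled age Vmn2r1 was the highest member at 0.0349 CPM per kb and Vmn2r3 the lowest member with counts at 0.0012.

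Around the cluster, 3 pseudogenes without a Vmn2r symbol were higher in DKO at labelled day 1, and 0 protein-coding genes without such a symbol were. The sequences of these pseudogenes were not compared with those of V2R genes. The 36 genes within 1 Mb of Vmn2r3 hold 17 Vmn2r symbols and 19 others. Of the 10 that passed the filter, 4 were higher in DKO at labelled day 1 by edgeR, beside 9.81% of all genes tested, with 5 at an unadjusted p under 0.05, 5 with DESeq2 and 3 with limma-voom. In the other direction 0 were lower by any of the 3 tools or at an unadjusted p under 0.05, beside 7.79%. The 4 were Vmn2r2 and the pseudogenes Gm20656, Gm20657 and Gm34379. None passed at labelled day 7: 0 of 10 did so in edgeR, DESeq2 or limma-voom, and 0 had an unadjusted p under 0.05. Over all genes tested by edgeR at that labelled age, 0.686% were higher and 0.334% lower.

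Gm20656, an unprocessed pseudogene between Vmn2r4 and Vmn2r5 on the other strand, was at 2.56 ± 0.356 CPM in DKO and 1.61 ± 0.254 in control at labelled day 1 (SD, n = 6 each). The ranges of 2.12 to 3.03 and 1.32 to 2.03 did not overlap (log2 fold change 0.67 ± 0.14, SE; edgeR adjusted p = 0.00344). Gm20657, a pseudogene of the same type beyond Vmn2r6, was at 4.13 ± 0.60 and 2.75 ± 0.43 CPM (0.58 ± 0.13, SE; edgeR adjusted p = 0.00521). Gm34379, a processed pseudogene, was at 0.416 ± 0.116 and 0.221 ± 0.0537 CPM (0.90 ± 0.26, SE; edgeR adjusted p = 0.0266), a call lost when any of 7 of the 12 libraries was left out (adjusted p 0.0525 to 0.0606). Over the whole table, 757 of 1594 tested genes typed as pseudogenes (47.5%) were higher in DKO at labelled day 1 and 18 (1.13%) at labelled day 7, so a higher pseudogene is common at labelled day 1.

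Gmps, which makes guanosine monophosphate, and Slc33a1, an acetyl-CoA transporter, are the abundant protein-coding genes nearest to the cluster. Their log2 fold changes at labelled day 1 were −0.03 ± 0.08 (SE; edgeR adjusted p = 0.86) and −0.08 ± 0.06 (SE; edgeR adjusted p = 0.399). The values at labelled day 7 were 0.03 ± 0.06 (adjusted p = 0.855) and 0.07 ± 0.09 (adjusted p = 0.769), each with its SE.

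The 6 nearest genes with counts had few of them, and of these Vmn2r128 and Vmn2r4 are described above. Gm23897, with a gap of 28.7 kb to Vmn2r3, held 1 count in control and 1 in DKO at labelled day 1. Vmn2r-ps4, at 39.0 kb, held 1 and 2. Gm18294, at 43.5 kb, held 42 and 35 (log2 fold change −0.04 ± 0.35, SE; edgeR without the filter, adjusted p = 0.985), and Gm5139, at 93.6 kb, held 14 and 5 (−1.15 ± 0.74, SE; adjusted p = 0.389, same fit). Vmn2r128 lies at 49.9 kb and Vmn2r4 at 93.3 kb.

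**Figure D4:**
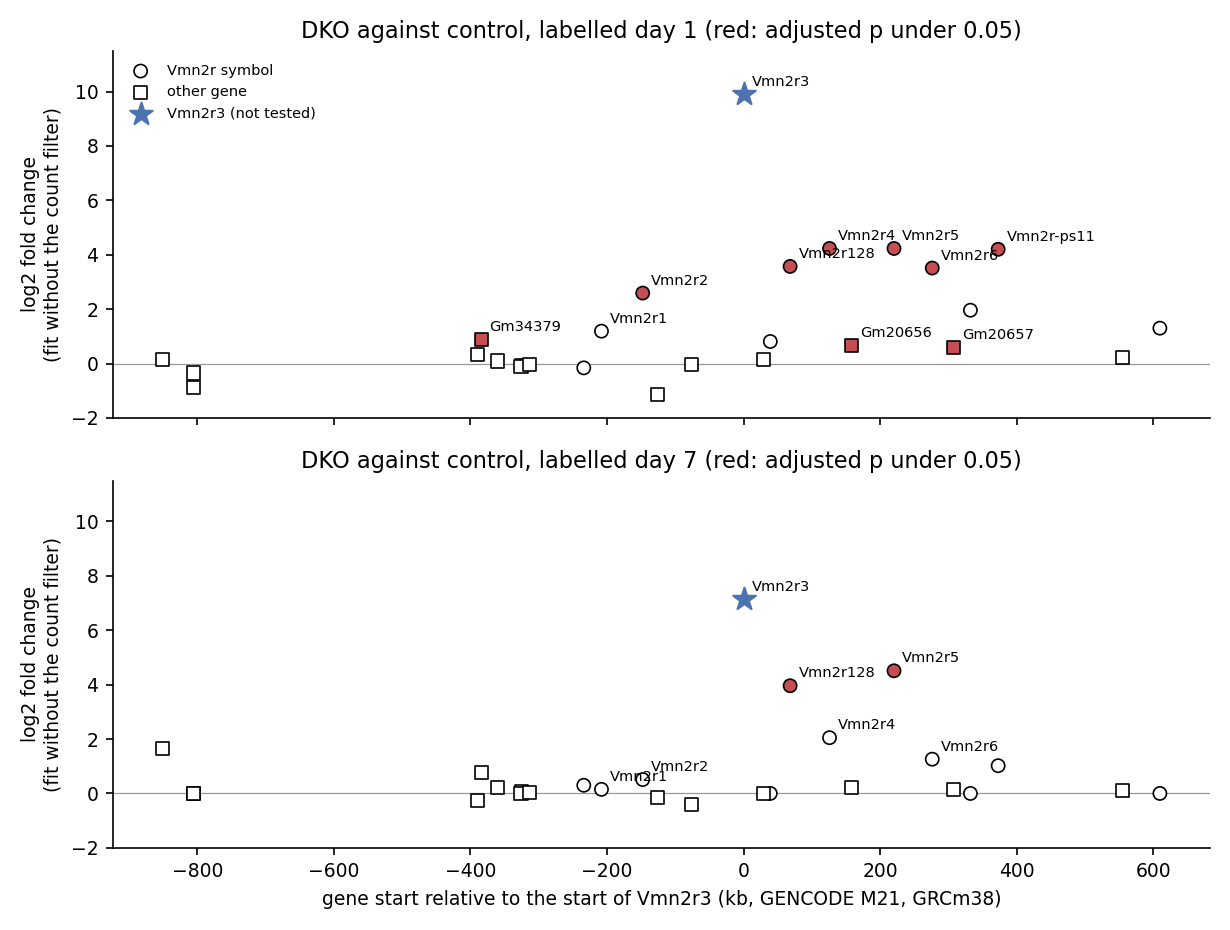
Log2 fold change of DKO against control, from the fit without the count filter, for each gene with counts within 1 Mb of Vmn2r3, against the distance of its start from that of Vmn2r3 in kb, at labelled day 1 (top) and labelled day 7 (bottom). Red symbols passed an adjusted p of 0.05, and Vmn2r3 (star) was not tested. Red circles at labelled day 1 are Vmn2r2, Vmn2r4, Vmn2r5, Vmn2r6, Vmn2r128 and Vmn2r-ps11, the red squares are Gm34379, Gm20656 and Gm20657, and at labelled day 7 only the circles Vmn2r5 and Vmn2r128 are red.

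No V2R gene elsewhere in the genome rose past the threshold with Vmn2r3. Of the 196 other Vmn2r symbols outside the window, 149 had counts and 12 were tested. At labelled day 1, 0 of these 12 were higher in DKO by edgeR (1 at an unadjusted p under 0.05, 0 with DESeq2 or limma-voom). In the other direction 1, Vmn2r59, was lower. Over all genes tested, 9.81% were higher and 7.79% lower, and for 12 genes these counts are near those shares. Without the filter 0 of 149 were higher, beside 6.2% of all genes, but most of the 149 had too few counts for the filter. The median log2 fold change of the 12 was −0.27, beside −0.02 over all genes tested.

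Vmn2r59 was at 7.38 ± 0.807 CPM in DKO and 9.51 ± 1.44 in control at labelled day 1 (SD, n = 6 each; log2 fold change −0.37 ± 0.11, SE; edgeR adjusted p = 0.0259). The ranges overlapped, and the call was lost without DKO 29, 33 or 69 (adjusted p 0.0559 to 0.0575). The summed level of the 196 genes was 37.3 to 45.9 CPM in DKO and 45.0 to 54.2 in control at labelled day 1, and 26.5 to 35.0 and 29.9 to 35.3 at labelled day 7. In the same test at labelled day 7, 0 of 12 passed in either direction by edgeR, beside 0.686% of all genes higher and 0.334% lower. Of these 12, 1 was lower at an unadjusted p under 0.05, and 0 passed by DESeq2 or limma-voom.

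The V1R family, the other main class of vomeronasal receptors, has 300 symbols here, of which 57 had counts and 2 were tested. Of the 2, Vmn1r4 was higher in DKO at labelled day 1 (7.57 ± 1.49 against 5.06 ± 0.91 CPM, SD, n = 6 each; log2 fold change 0.58 ± 0.15, SE; edgeR adjusted p = 0.0142). Of the 7 formyl peptide receptor symbols, a family with members in immune and vomeronasal cells, 2 were tested and Fpr3 was higher at labelled day 1 (4.73 ± 0.403 against 3.33 ± 0.352 CPM; 0.50 ± 0.10, SE; edgeR adjusted p = 0.00293). Of 1171 odorant receptor symbols, 8 were tested and 0 passed at either labelled age by edgeR, DESeq2 or limma-voom, with 2 lower at an unadjusted p under 0.05 at labelled day 1. Over all genes tested by edgeR, 9.81% were higher and 7.79% lower at labelled day 1, and 0.686% and 0.334% at labelled day 7. The 2, 2 and 8 genes tested are too few to set these families apart from those shares. No trace amine receptor, exocrine gland peptide or major urinary protein gene, the last pair being known V2R ligand families, reached the filter.

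None of the tested genes of V2R signalling in the vomeronasal organ rose past the threshold. Of the 9 transduction genes 7 were tested; 0 rose by edgeR (0 at an unadjusted p under 0.05, 0 with DESeq2 or limma-voom) and 2 fell at labelled day 1, beside 9.81% higher and 7.79% lower over all genes tested. Gnao1, the G protein subunit of V2R neurons, was at 9.29 ± 1.75 CPM in DKO and 12.4 ± 1.36 in control (SD, n = 6 each; log2 fold change −0.42 ± 0.12, SE; edgeR adjusted p = 0.0246). That call was lost without control 62, DKO 29 or DKO 79, and with all 24 libraries in 1 fit (adjusted p = 0.076). Plcb2, a phospholipase of chemosensory cells, was at 1.30 ± 0.269 and 2.42 ± 0.582 CPM (−0.90 ± 0.19, SE; edgeR adjusted p = 0.00338), and its groups did not overlap.

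At labelled day 7, 0 of the 7 transduction genes passed by edgeR or limma-voom, beside 0.686% of all genes higher and 0.334% lower by edgeR. Among the 7, 2 were lower at an unadjusted p under 0.05 and 1 was lower with DESeq2. Of the 11 partner genes of the list, mostly the H2-M class Ib molecules that accompany V2Rs at the cell surface, 0 passed the filter, and their summed level was 0.133 to 0.572 CPM over all libraries. Trpc2 and the partner gene B2m were listed at 0 in every library, and 100% of the exonic bases of each lie inside other genes. The summed level of the partners therefore holds no counts of B2m, and its 0 cannot be read as absence of its transcript.

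No tested marker of sensory neurons passed with Vmn2r3. Of the 16 on the list, 12 had counts, 9 were tested, and 0 passed at either labelled age by edgeR, DESeq2 or limma-voom, with 0 at an unadjusted p under 0.05. Over all genes tested by edgeR, 9.81% were higher and 7.79% lower at labelled day 1, and 0.686% and 0.334% at labelled day 7. For 9 genes a count of 0 is near those shares. Their summed level at labelled day 1 was 60.5 to 67.4 CPM in control and 64.0 to 69.5 in DKO, and at labelled day 7 it was 63.9 to 75.3 and 62.8 to 75.8. Omp, Neurod1 and Tubb3 were listed at 0 in all libraries, and their exons lie wholly inside other genes.

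Atrial muscle transcripts differed between libraries. Myl7, a myosin light chain of atrial muscle, was at 1.34 to 303 CPM in the controls of labelled day 1 and 0.564 to 17.3 in DKO. The 8 atrial markers together were at 77.6 to 541 CPM in control and 140 to 858 in DKO at labelled day 1, and at 409 to 714 and 614 to 2500 at labelled day 7. By edgeR 1 of these 8 was higher and 2 were lower in DKO at labelled day 1, beside 9.81% higher and 7.79% lower over all genes tested. The median log2 fold change of the 8 was −0.85. Epicardial markers, on a list of 6 genes, were at 40.4 to 91.3 CPM in control and 83.5 to 157 in DKO at labelled day 1, and at 31.5 to 88.6 and 45.3 to 93.0 at labelled day 7. By edgeR 2 of the 6 were higher in DKO at labelled day 1 and 0 lower, beside the same 9.81% and 7.79% of all genes. The list's median log2 fold change was −0.27, opposite in sign to the change of the sum. The part of these lists in the Vmn2r3 level was not tested.

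By size of the fitted rise, Vmn2r3 came before every other tested gene at labelled day 1 and second at labelled day 7. Next at labelled day 1 came Fgf21, a stress-induced hormone (3 counts in control, 589 in DKO), the immunoglobulin segment Ighv1-62 (3 and 165), Slc7a3, a cationic amino acid transporter (58 and 2359), and Gm13730 (3 and 131). The 5 of labelled day 7 were Fgf21 (2 and 453), Vmn2r3, Adm2, a peptide hormone (4 and 444), Slc7a3 (56 and 3946), and Chac1, a glutathione-degrading enzyme (26 and 1814). These ranks are fitted values and describe where Vmn2r3 stands.

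The gene closest to Vmn2r3 in pattern over the 24 libraries was Soat2, an enzyme that esterifies cholesterol, with a Pearson r of 0.975 in log2 CPM. Soat2 at labelled day 1 held 6, 6, 2, 3, 5 and 7 counts in controls and 127, 110, 136, 93, 96 and 18 in DKO, so DKO 79 was again the lowest DKO library. Sars (seryl-tRNA synthetase) followed at 0.974, Fgf21 at 0.959, Avil (the actin-binding protein advillin) at 0.958 and Eif3c, a translation initiation subunit, at 0.957. The rest were Gm9252 at 0.946, Trib3 (a pseudokinase induced by cell stress) at 0.941, Gm13337 at 0.94, Asns (asparagine synthetase) at 0.939 and Mthfd2 (a mitochondrial folate enzyme) at 0.936. The libraries fall into control and DKO, and any gene that separates them scores high, so these values describe the libraries only.

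Within the 12 DKO libraries alone, r was 0.968 for Avil, 0.957 for Soat2 and 0.875 for Sars, and 0.533 to 0.761 for the other 7. Without DKO 79, an alternative chosen after seeing the data, it was 0.952, 0.939 and 0.752 for these 3, while for the other 7 it ranged from −0.0864 (Asns) to 0.614 (Fgf21), with Trib3 (−0.04) and Mthfd2 (−0.056) also below 0. Within the 12 controls it ranged from −0.343 to 0.55, where Vmn2r3 had at most 5 counts a library. All 10 genes had their lowest DKO level of labelled day 1 in DKO 79. They were chosen by r with Vmn2r3 over these same libraries, and Vmn2r3 was lowest there. The choice itself favours this pattern, so it is no separate result. Avil was at 0.461 CPM there and 3.47 to 13.5 in the other 5, against at most 0.418 in controls, and Asns was at 42.3 CPM there and 82.7 to 159 in the other 5, against at most 8.80 in controls.

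**Figure D5:**
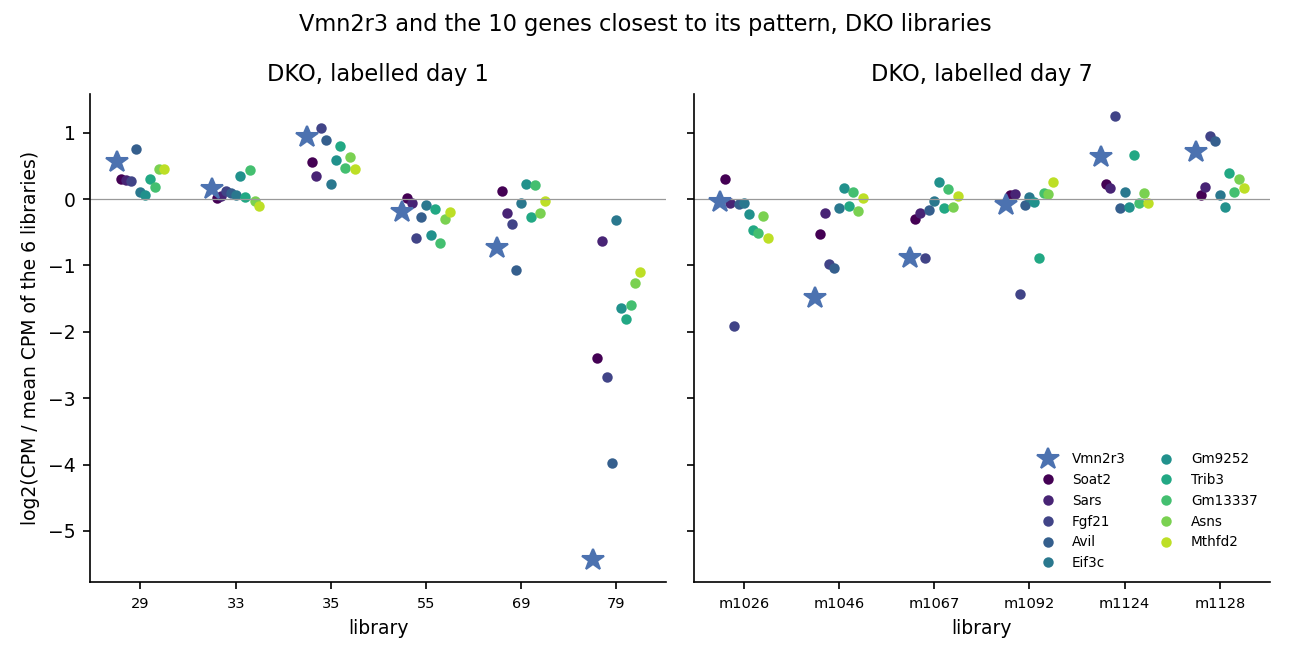
Log2 of the CPM in each DKO library over the mean of its 6 libraries, for Vmn2r3 (star) and the 10 genes closest to its pattern (circles), at labelled day 1 (left) and labelled day 7 (right). In DKO 79 Vmn2r3 and the 10 genes are at their lowest, Vmn2r3 the farthest below its mean, and at labelled day 7 Vmn2r3 is lowest in m1046. The 10 genes were chosen by their r with Vmn2r3 over libraries that include these, which favours a shared lowest library.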

How the data were processed

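The authors deposited 1 table of raw read counts per gene for 24 libraries. STAR 2.4.2a, bcl2fastq and the build GRCm39 are named in the submitters' processing notes; the counting tool, the strand setting and the treatment of reads with several matches are not given in the sources used here. Per the labels' protocols, libraries were made from 100 ng of total RNA with a low-input kit. The members and gene lists were chosen with earlier results of these data known.

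Counts were scaled by TMM, filtered with filterByExpr (count minimum 10) and tested with edgeR 4.0.16 (glmQLFit, robust, and glmQLFTest; R 4.3.3) within each labelled age (12 libraries), or over all 24 for the age and interaction tests, with Benjamini-Hochberg adjustment over all genes tested. The test was checked on simulated data. DESeq2 1.42.0, limma 3.58.1 (voom), other scalings, no filter and each library left out were alternatives. Counting intervals are exact Clopper-Pearson intervals, rescaled by library size. Library pairs within a group were never within sampling noise of each other (chi-square over its degrees of freedom, lowest value 5.31), so none was counted as a duplicate. Gene names, distances and sequences come from GENCODE M21 (GRCm38), to which all 39396 gene IDs matched; no gene coordinates are given because the builds differ. Named genes were the 7 members, neighbours and list genes past the threshold, the 6 nearest genes with counts, the 10 genes with the highest r (prior count 2) and the 5 largest rises at each labelled age. Some list genes that this rule would name are not reported here.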

Additional observations from a re-analysis of the deposited data

Results flagged for a closer look

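Among 70 gene and group combinations examined, 5 had a library far from its group, where chance gives about 1 in 20. Control m1066 of labelled day 7 stood apart in Vmn2r4 (3 counts, 0.116 CPM, against 0.0403 in the next library) and, with 1 count each (0.0386 CPM), in Vmn2r128 and Vmn2r-ps11, where every other control of that age was at 0. With 5 libraries at 0 any single count is picked out, and 1 count is within the limit of 3 that a library at 0 allows. The same library held 5 of the 7 control counts of Vmn2r3 at labelled day 7. Control 13 stood apart in Gm20657 at 3.59 CPM, against 2.80 in the next control of labelled day 1. DKO 79 stood apart in Soat2 at 0.553 CPM, against 2.95 in the next DKO library of labelled day 1.

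The genotype effect on Fpr3 differed between the labelled ages: its log2 fold change was lower at labelled day 7 than at labelled day 1 by −0.68 ± 0.17 (SE; edgeR interaction, adjusted p = 0.046). Without the filter the adjusted p of this difference was 0.0952.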

How the results depend on the processing

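Scaling by DESeq2 size factors or library totals changed no call or level named here. At labelled day 1 the number of other members higher in DKO was 1; it was 2 with the DESeq2 test or with all 24 libraries in 1 fit, 0 with limma-voom, 4 without the filter and 5 with DESeq2 without the filter, an alternative chosen after seeing the data. The other counts that moved did so mainly without the filter, which tests more genes: neighbours higher went from 4 to 9 at labelled day 1 and from 0 to 2 at labelled day 7, receptor, partner and ligand genes higher from 3 to 7 and from 0 to 1, other members higher at labelled day 7 from 0 to 1, and other members lower in DKO at labelled day 7 than at labelled day 1 from 0 to 3. With the DESeq2 test 1 receptor, partner or ligand gene was lower at labelled day 7, against 0. Leaving out each library gave 1 to 2 other members, 3 to 5 neighbours and 3 to 4 list genes higher and 1 to 5 list genes lower at labelled day 1 (3 lower with all libraries), and 0 throughout at labelled day 7. The DKO to control ratio of Vmn2r3 was 942 to 1530 at labelled day 1 and 125 to 444 at labelled day 7 with 1 library left out. The log2 fold change of Vmn2r1 at labelled day 7 (0.15) turned to −0.06 without DKO m1026 and −0.02 without DKO m1128 (range −0.06 to 0.26 over the libraries left out), neither past the threshold. The cause of these changes was not tested beyond the number of genes or libraries entered. Depth limits Vmn2r4, Vmn2r5 and Vmn2r6, with 17 to 20 counts each in DKO at labelled day 7. No paired analysis was possible because the groups share no replicate numbers.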

Other observations

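Without the filter, 2 of 339 odorant receptor genes with counts were higher in DKO at labelled day 1, beside 6.2% of all genes in that fit, both at very low counts. Olfr561 held 2 counts in the controls and 21 in DKO (edgeR without the filter, adjusted p = 0.0196), of which 9 were in 1 library. Olfr1364 held 0 and 12 (adjusted p = 0.0373, same fit), with 2 of the 6 DKO libraries at 0. In the libraries of labelled day 7, Olfr561 held 5 and 6 counts and Olfr1364 2 and 2.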
